A study of Mus musculus with 6 samples.

Results

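The 37 genes described here encode the machinery that copies DNA in S phase, the enzymes that supply its nucleotides and the regulators that start it. They were chosen by symbol, and each symbol has 1 row in the deposited table of 27761 genes. The table holds mRNA levels of mouse bone marrow B220+ cells in 2 groups of 3 libraries, with the genotype labels WT and PELI2 knockout, the latter titled PELI2-CKO. B220 is a form of the surface protein CD45 that marks the B lineage from its early stages, and plasmacytoid dendritic cells carry it too. Peli2 encodes a Pellino protein, a ubiquitin ligase that acts in signalling from Toll-like and interleukin-1 receptors. The strain, age and sex of the mice, the Cre driver if there was one, and any pooling of animals are not given in the sources used here. Nothing in the labels says that replicates came from different animals, and the p-values below cover the spread among these 6 libraries alone.

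DNA replication begins with licensing in G1, when Cdc6 and Cdt1 help to load the ring of Mcm2 to Mcm7 at origins. In S phase Cdc45, the GINS complex and Mcm10 turn that ring into an active helicase. DNA polymerases then copy the strands, held by the sliding clamp PCNA. E2F transcription factors switch on many of these genes, and in marrow the large pre-B cells that have just assembled a heavy chain are a dividing stage of the B lineage. Erythroblasts and granulocyte precursors also divide in marrow.

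The target gene did not separate the groups. The mean of Peli2 (ENSMUSG00000021846) was 2.19 ± 0.31 FPKM (SD, n = 3) for WT and 2.74 ± 0.30 FPKM (n = 3) for the libraries labelled PELI2 knockout (two-sided exact permutation test, p = 0.2, where 3 against 3 libraries cannot go below 0.1). FPKM is a read count scaled by transcript length and library size, so levels can be compared between genes. Which exons were deleted is not given in the sources used here, and a value over the whole gene does not show whether one is missing. Directions below are those of the label, not of a measured loss of Peli2, and errors below are SD over 3 libraries unless named. Depth worked out from the low values lay between 16600000 and 18100000 reads per library. The 8 B cell identity markers listed for this fraction ranged from Ebf1, between 30.2 and 47.3 FPKM, to Cd79a, between 488 and 724 FPKM. Some markers of other cells stood higher and others lower. Hba-a1, an erythroid marker, lay between 3676 and 6646 FPKM in the 6 libraries. S100a9, a granulocyte marker, lay between 2764 and 4743 FPKM.

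No replication or S phase gene passed the test between the groups. All 37 were above the expression filter of 1 FPKM in at least 3 libraries, and 0 had an adjusted p under 0.05 (limma on log2(FPKM + 1), Benjamini-Hochberg over 12953 genes), where 0.0232% of all tested genes did. The smallest adjusted p of a member was 0.209. At an unadjusted p under 0.05 there were 4 members, Tk1 and Ccne1 higher and Uhrf1 and Rfc3 lower in the PELI2 knockout-labelled libraries. That is 10.8% of the members, against 18.1% of all tested genes, so the share is not above the background. The 2 higher and 2 lower members stand beside 9.2% of all tested genes higher and 8.88% lower.

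The measured differences were small and their intervals narrow. The log2 fold changes of the members ran from -0.20 for Uhrf1 to 0.21 for Ccne1, with a median of 0.02 against -0.01 over all tested genes. The median size of a difference, regardless of sign, was 0.05 for the members and 0.10 for all tested genes. For other replication genes it was 0.06 and for mitosis genes 0.04, so a small size was not particular to the members. The median level was 20.4 FPKM for the members and 7.71 FPKM for all tested genes. The 95% confidence interval of the log2 fold change (limma) lay within 0.5 of 0, a ratio of 1.41, for 37 of 37 members and for 76.7% of all tested genes. It lay within 0.3 of 0, a ratio of 1.23, for 32 of 37 members and for 48.6% of all tested genes. Both distances were chosen with earlier results of these data known, so the counts of members inside them are descriptions only. The bound farthest from 0 was that of Gins1, at 0.44, which is a ratio of 1.35. Changes larger than these bounds fall outside the intervals. The intervals of 57 of 57 other replication genes and of 25 of 25 mitosis genes also lay within 0.5 of 0. In bulk RNA, fewer cells of a type and less RNA per cell cannot be told apart.

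**Figure D1:**
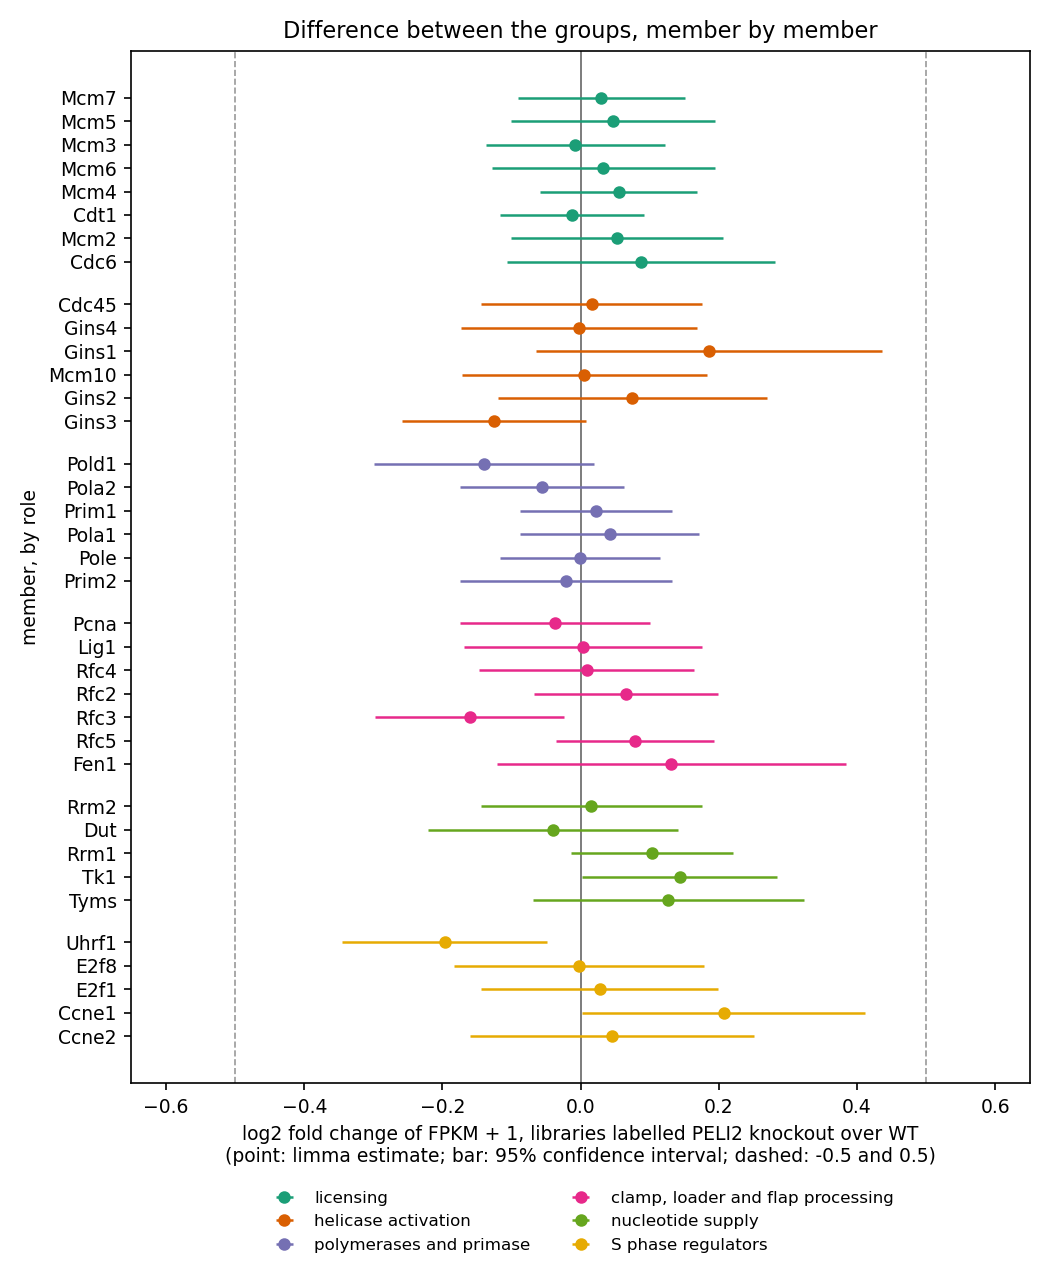
Log2 fold change of each of the 37 members between libraries labelled PELI2 knockout and WT, by role, with bars for the 95% confidence interval from limma. Every bar lies between the dashed lines, which stand at a distance of 0.5 from 0, and the bars of Uhrf1, Rfc3, Tk1 and Ccne1 do not reach 0.

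The direction of the set as a whole was not the same under every scaling. With the deposited FPKM, 24 members had a positive log2 fold change and 13 a negative one. Median-of-ratios scaling gave 27 positive and 10 negative, and quantile normalization 20 and 17. Rescaling each library to a common FPKM total gave 9 positive and 28 negative, with a median log2 fold change of -0.05 against -0.08 over all tested genes. Over all tested genes at an unadjusted p under 0.05 the same rescaling turned 1192 higher and 1150 lower genes into 726 and 2328. Without WT replicate 2 there were 16 positive and 21 negative, and without PELI2_knockout replicate 2 there were 18 and 19. Under the common total the medians of 5 of the 6 roles were negative, and that of nucleotide supply stayed positive at 0.03. No common direction of the members is given here for that reason.

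Groups did not overlap for 8 members, 4 higher and 4 lower, which is 21.6% of them against 25.8% of all tested genes. Over all tested genes 11.5% were apart and higher and 14.3% apart and lower. The higher ones were Tk1, Ccne1, Rrm1 and Rfc5, and the lower ones Uhrf1, Rfc3, Pold1 and Gins3.

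The E2F consensus was more frequent in the promoter windows of the members than in those of all tested genes, though most members held none. RefSeq promoter windows (GRCm38.p6, 250 bases before to 50 after an annotated start) were matched by symbol to 29 of the 37 members, the others being Mcm4, Gins1, Gins2, Gins4, Prim2, Pole, Rfc2 and Ccne2. They were searched on both strands for the consensus in its 4 versions TTTCCCGC, TTTCGCGC, TTTGCCGC and TTTGGCGC. Of these 29 members 12 held at least 1 match, or 41.4%, against 4.85% of the 8746 tested genes with a window and 2.61% of all 27025 genes with one. Among other replication genes 19 of 49 did, and among mitosis genes 1 of 22. Members with 2 or more matches in a window numbered 5 (Mcm3, Mcm5, Mcm6, Mcm7 and Rfc3), or 17.2%, against 0.252% of the tested genes. Windows of the members and of the tested genes had the same median GC content, 60.7%. A match is a description of the letters, not a shown binding site.

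The stretches below show how the matches lie in members of different roles, with the matches in capitals, and each is read 5′ to 3′ on the strand of its gene. The stretches of Mcm5 and Mcm6, both parts of the helicase ring, hold a pair of opposed matches that share 4 letters, and that of Mcm6 a further one. Mcm6 lies at chr1:128359741-128359820, Mcm5 at chr8:75109322-75109401 and Pola1 at chrX:93632250-93632329, all upstream of the GENCODE gene, with Mcm6 and Pola1 on the minus strand and Mcm5 on the plus strand.
Mcm6: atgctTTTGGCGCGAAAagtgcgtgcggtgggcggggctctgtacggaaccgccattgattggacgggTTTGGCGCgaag
Mcm5: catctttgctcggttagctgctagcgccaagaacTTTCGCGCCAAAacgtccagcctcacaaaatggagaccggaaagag
Pola1: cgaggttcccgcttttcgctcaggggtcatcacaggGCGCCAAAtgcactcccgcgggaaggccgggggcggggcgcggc

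Shorter stretches are given for 4 members whose levels are described in full below and whose RefSeq start lies inside the GENCODE gene. Rfc3 lies at chr5:151651201-151651230 on the minus strand and Gins3 at chr8:95633507-95633536 on the plus strand, both overlapping an exon. Cdc6 lies at chr11:98908002-98908031 and Uhrf1 at chr17:56304117-56304146, both on the plus strand in an intron, that of Uhrf1 before its second RefSeq start.
Rfc3: gacgtcgcacgcTTTCGCGCtcGCGGGAAA
Gins3: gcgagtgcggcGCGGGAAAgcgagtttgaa
Cdc6: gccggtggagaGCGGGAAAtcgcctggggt
Uhrf1: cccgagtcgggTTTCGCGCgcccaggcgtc

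**Figure D2:**
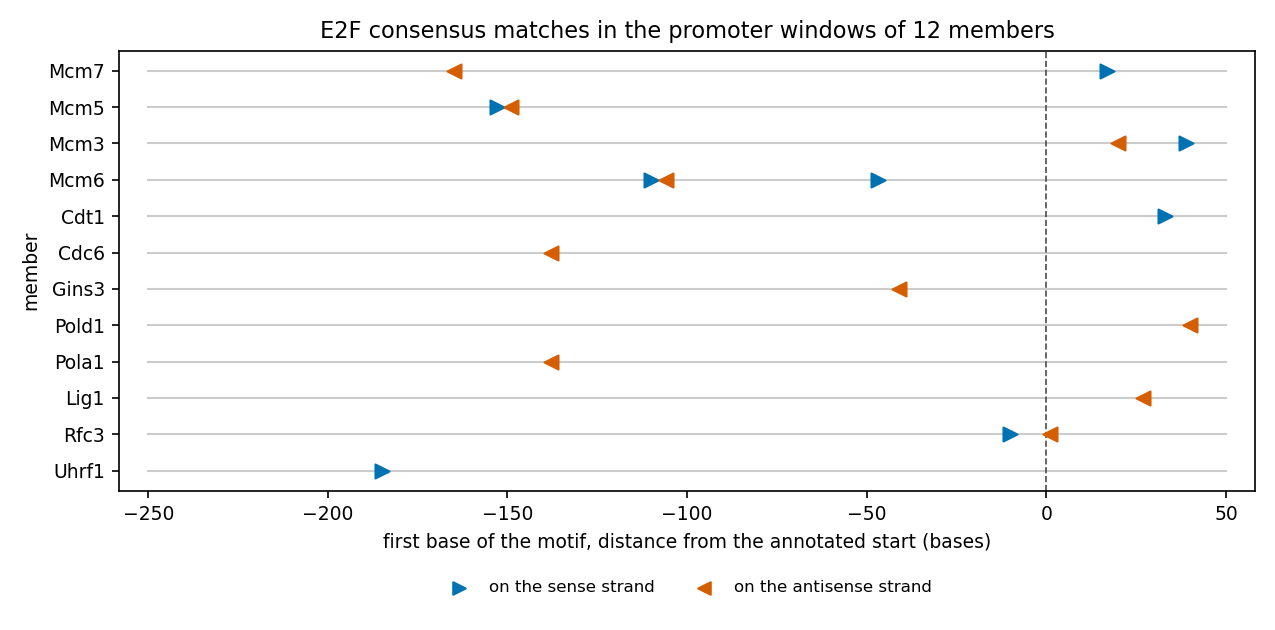
Position of each E2F consensus match in the windows of the 12 members that hold one, as the distance of its first base from the annotated RefSeq start in bases, with triangles pointing right for the sense and left for the antisense strand. Matches lie from 185 bases before the start in Uhrf1 to 40 after it in Pold1.

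Members with and without a match are described side by side. The 12 members with a match had log2 fold changes from -0.20 to 0.09 with a median of -0.0022. The 17 with a window and no match ran from -0.06 to 0.21 with a median of 0.02, and the 8 without a window had a median of 0.05. The 4 members that were apart and lower, Uhrf1, Rfc3, Pold1 and Gins3, all hold a match. The 4 that were apart and higher, Tk1, Ccne1, Rrm1 and Rfc5, hold none of the searched versions in their windows. Both sets of 4 were picked by these same values, with narrow margins for Pold1, Tk1, Ccne1 and Rfc5, and none passed with adjustment (limma). The same split was not worked out over all tested genes. The split among the members was noticed after the values were seen, and the difference was not tested.

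The levels of the members spanned a ratio of 51.6 between the highest, Pcna, and the lowest, Fen1. Pcna, the sliding clamp, averaged 173 ± 5.79 FPKM in WT and 169 ± 7.18 FPKM in the PELI2 knockout-labelled libraries. Next came Rrm2, the small subunit of ribonucleotide reductase, at 98.7 ± 1.28 and 99.99 ± 8.20 FPKM, and Uhrf1. Along the order of mean levels, 29 of the 36 neighbouring pairs had ranges over the 6 libraries that overlapped, so most neighbours cannot be placed one above the other. Fen1, the nuclease that trims flaps between Okazaki fragments, stood at 3.12 ± 0.49 and 3.50 ± 0.33 FPKM. If all its reads came from its longest transcript, its lowest library held 113 reads, the fewest of any member. The spans of Tmem258 and Gm10143 overlap Fen1 on the opposite strand, over 156 and 3253 bases. The level of Fen1 may be less certain if strand was not used, which was not tested.

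**Figure D3:**
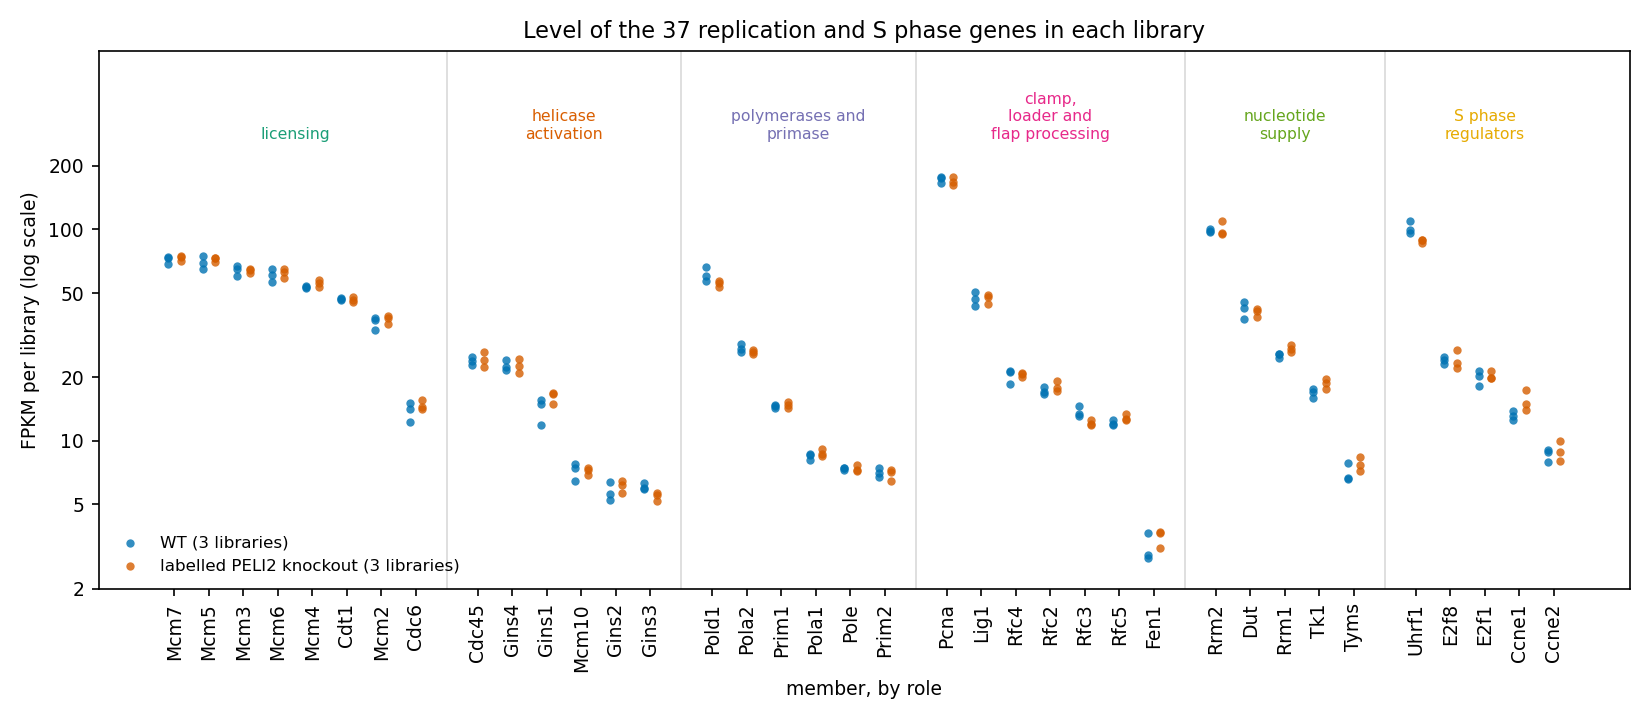
FPKM of each member in each of the 6 libraries on a log scale, by role, WT in blue and libraries labelled PELI2 knockout in orange. The points of both colours lie at about the same height for each gene, and the genes differ from each other far more than the groups do, from Fen1 near 3 FPKM to Pcna near 170.

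Gene coordinates below are those of GRCm38. Of the 8 licensing genes none had an unadjusted p under 0.05 and none was apart between the groups. Their log2 fold changes ran from -0.01 to 0.09 with a median of 0.04. Cdc6 (chromosome 11, 98907801 to 98923940), an ATPase that loads the helicase at origins, stood at 14.1, 12.3 and 15.1 FPKM in WT replicates 1 to 3. In the libraries labelled PELI2 knockout it stood at 14.1, 15.6 and 14.4 FPKM. The groups overlapped, with WT replicate 2 the lowest of the 6, and the log2 fold change was 0.09 with a standard error of 0.08 (limma adjusted p = 0.601). It was 0.01 without WT replicate 2, 0.15 without WT replicate 3, 0.05 without PELI2_knockout replicate 2 and 0.02 with a common FPKM total.

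Mcm4 (chromosome 16, 15623897 to 15637400), a subunit of the helicase ring, stood at 53.8, 53.4 and 53.0 FPKM in WT and 53.2, 55.9 and 57.7 FPKM in the other group. Its lowest labelled library lay within the WT range, and its log2 fold change was 0.06 ± 0.05 (SE, limma adjusted p = 0.568), or -0.02 with a common FPKM total and 0.0065 with quantile normalization. Without PELI2_knockout replicate 1 it was 0.09 and without replicate 3 of that group 0.03. The 6 subunits of the ring, made in equal numbers in the complex, did not have equal mRNA levels. In WT they ranged from 36.3 ± 2.45 FPKM for Mcm2 through 53.4 ± 0.42 for Mcm4, 60.7 ± 4.19 for Mcm6, 64.1 ± 3.47 for Mcm3 and 69.9 ± 4.78 for Mcm5 to 71.9 ± 2.58 for Mcm7. The means had the same order in the PELI2 knockout-labelled libraries, where Mcm2 stood at 37.6 ± 1.60 and Mcm7 at 73.4 ± 2.22 FPKM. Mcm2 lay below Mcm4, and Mcm4 below the other members of the ring, in each of the 6 libraries, while the upper 4 overlapped from one to the next. Cdt1, the partner of Cdc6, stood at 46.9 ± 0.67 and 46.4 ± 1.24 FPKM.

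The 6 genes that activate the helicase had log2 fold changes from -0.12 to 0.19 with a median of 0.01. Gins3 (chromosome 8, 95633453 to 95645060), a GINS subunit, stood at 5.94, 5.97 and 6.29 FPKM in WT and 5.22, 5.67 and 5.56 FPKM in the PELI2 knockout-labelled libraries. All 3 labelled libraries lay below all 3 WT libraries, and the log2 fold change was -0.12 with a standard error of 0.06 (limma adjusted p = 0.298), or -0.19 with a common FPKM total. Gins1 (chromosome 2, 150905400 to 150931280), another subunit, stood at 14.9, 11.9 and 15.6 FPKM in WT and 14.9, 16.6 and 16.9 FPKM in the other group.

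WT replicate 2 was the low library for Gins1, the groups overlapped, and the log2 fold change was 0.19 ± 0.10 (SE, limma adjusted p = 0.397). Without WT replicate 2 it was 0.08, and with a common FPKM total 0.12. Gins4 stood at 22.7 ± 1.29 and 22.7 ± 1.78 FPKM and Gins2 at 5.74 ± 0.57 and 6.09 ± 0.42 FPKM. Gins4 lay above Gins1, and Gins1 above Gins2 and Gins3, in every library, while the ranges of Gins2 and Gins3 overlapped. Cdc45, the helicase cofactor, stood at 23.9 ± 0.99 and 24.2 ± 1.88 FPKM, and Mcm10 at 7.20 ± 0.68 and 7.21 ± 0.28 FPKM.

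The summed FPKM of the 6 genes of polymerases and primase was 132, 121 and 125 in WT and 121, 119 and 120 in the other group. The groups were apart by a margin of 121.2 against 120.6, and Pold1 made up the largest part of the sum. The median of the log2 fold changes was -0.01, 2 of them positive and 4 negative. Pold1 (chromosome 7, 44532746 to 44548849), the catalytic subunit of the lagging strand polymerase delta, stood at 66.6, 57.3 and 60.2 FPKM in WT. It stood at 57.2, 53.4 and 55.9 FPKM in the PELI2 knockout-labelled libraries. The groups did not overlap, by a margin of 57.3 against 57.2, and the log2 fold change was -0.14 with a standard error of 0.07 (limma adjusted p = 0.325). It was -0.08 without WT replicate 1 and -0.21 with a common FPKM total. Pold1 overlaps the pseudogene Gm44833 on the opposite strand, which had means of 2.17 and 1.18 FPKM.

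Pola2 (chromosome 19, 5940543 to 5964206), the accessory subunit of the priming polymerase alpha, stood at 28.7, 26.3 and 27.1 FPKM in WT and 26.9, 26.2 and 25.8 FPKM in the other group. The groups overlapped, and the log2 fold change was -0.06 ± 0.05 (SE, limma adjusted p = 0.585), or -0.02 without WT replicate 1 and -0.13 with a common FPKM total. Pole, the catalytic subunit of the leading strand polymerase epsilon, had nearly the same level in all 6 libraries, from 7.23 to 7.65 FPKM. Pola1 stood at 8.46 ± 0.29 and 8.74 ± 0.39 FPKM. The primase subunits Prim1 and Prim2 stood at 14.6 ± 0.20 and 7.07 ± 0.36 FPKM in WT, and at 14.8 ± 0.51 and 6.96 ± 0.43 FPKM in the labelled group.

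Among the 7 genes of the clamp, its loader and the joining of Okazaki fragments, Rfc3 and Rfc5, both subunits of the clamp loader, lay apart in opposite directions. Rfc3 (chromosome 5, 151642756 to 151651242) stood at 14.6, 13.4 and 13.1 FPKM in WT and 11.8, 11.99 and 12.6 FPKM in the PELI2 knockout-labelled libraries. Each labelled library was below each WT library, and the log2 fold change was -0.16 with a standard error of 0.06 (limma adjusted p = 0.23). Rfc5 (chromosome 5, 117378103 to 117389047) stood at 12.01, 11.9 and 12.5 FPKM in WT and 12.7, 13.3 and 12.6 FPKM in the other group.

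Each labelled library was above each WT library for Rfc5, by a margin of 12.50 against 12.59. The log2 fold change of Rfc5 was 0.08 ± 0.05 (SE, limma adjusted p = 0.429), or 0.01 with a common FPKM total. Rfc5 overlaps Wsb2 on the opposite strand over 499 bases, and Wsb2 stood at 5.24 and 6.10 FPKM, so reads of the overlap cannot be assigned if strand was not used. Rfc2 stood at 17.2 ± 0.65 and 18.04 ± 0.95 FPKM and Rfc4 at 20.4 ± 1.61 and 20.5 ± 0.49 FPKM. Lig1, the ligase that seals Okazaki fragments, stood at 47.0 ± 3.67 and 47.1 ± 2.55 FPKM.

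Of the 5 nucleotide supply genes 4 had a positive log2 fold change, or 3 with a common FPKM total, and the median of 0.10 was the highest of the 6 roles. Tk1 (chromosome 11, 117815526 to 117826092), the thymidine kinase of the salvage pathway, stood at 15.9, 16.9 and 17.5 FPKM in WT and 18.8, 19.6 and 17.6 FPKM in the other group. The groups were apart by a margin of 17.5 against 17.6, and the log2 fold change was 0.14 with a standard error of 0.06 (limma adjusted p = 0.27), or 0.07 with a common FPKM total.

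Rrm1 (chromosome 7, 102441695 to 102469771), the large subunit of ribonucleotide reductase, stood at 24.7, 25.7 and 25.7 FPKM in WT and 26.2, 28.5 and 27.2 FPKM in the PELI2 knockout-labelled libraries. The groups did not overlap, and the log2 fold change was 0.10 ± 0.05 (SE, limma adjusted p = 0.326), or 0.03 with a common FPKM total. Tyms, which makes thymidylate, stood at 7.03 ± 0.68 and 7.76 ± 0.59 FPKM. Dut, which removes dUTP, stood at 41.8 ± 3.90 and 40.6 ± 1.65 FPKM.

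The lowest and the highest log2 fold change of the set were those of 2 S phase regulators, Uhrf1 and Ccne1. Those of E2f1, E2f8 and Ccne2 were 0.03, -0.0023 and 0.05. Uhrf1 (chromosome 17, 56303321 to 56323486), which brings the maintenance DNA methyltransferase to newly copied DNA, stood at 109, 95.8 and 99.6 FPKM in WT. It stood at 86.1, 89.5 and 89.5 FPKM in the PELI2 knockout-labelled libraries. The groups did not overlap, with WT replicate 1 the highest of the 6, and the log2 fold change was -0.20 with a standard error of 0.06 (limma adjusted p = 0.209), or -0.14 without WT replicate 1.

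Ccne1 (chromosome 7, 38097984 to 38107534), a cyclin that drives entry into S phase, stood at 12.5, 13.1 and 13.9 FPKM in WT and 13.9, 17.4 and 14.9 FPKM in the other group. The lowest labelled library exceeded the highest WT library only at the next digit, 13.93 against 13.87, and PELI2_knockout replicate 2 was the highest. The log2 fold change was 0.21 ± 0.09 (SE, limma adjusted p = 0.272). Without PELI2_knockout replicate 2 it was 0.12, and with a common FPKM total 0.14. Its paralog Ccne2 stood at 8.64 ± 0.60 and 8.96 ± 0.96 FPKM. E2f1, an activator of S phase genes, stood at 19.96 ± 1.69 and 20.3 ± 0.94 FPKM, and E2f8, a repressor of the family, at 24.1 ± 0.84 and 24.1 ± 2.40 FPKM.

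Within each group the members tended to be low in the same library. WT replicate 2 was the lowest WT library for 24 of the 37 members and PELI2_knockout replicate 1 the lowest labelled library for 26. Over all 6 libraries WT replicate 2 was the lowest for 15 members and PELI2_knockout replicate 1 for 9, and neither was the highest for any. PELI2_knockout replicate 2 was the highest for 14. These counts were not worked out over all tested genes, so whether they are particular to the members is not known. The median coefficient of variation of the members was 5.42% in WT and 4.33% in the PELI2 knockout-labelled libraries, against 8.24% and 6.51% over all tested genes. It was 4.41% and 5.31% for other replication genes, and 3.76% and 3.97% for mitosis genes.

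The summed FPKM of the 37 members was 1293, 1210 and 1297 in WT replicates 1 to 3 and 1219, 1290 and 1276 in the labelled replicates, so the groups overlapped fully. The mean of the labelled group was lower by 0.413%, with a value of 1261 ± 37.7 against 1267 ± 49.0 in WT. Other genes of the pathway lay near 0 as well. Of 57 other replication genes, all above the filter, 6 had an unadjusted p under 0.05, or 10.5%, against 18.1% of all tested genes. Of these 6, 3 were higher and 3 lower, and 0 of the 57 passed with adjustment (limma). Groups did not overlap for 14 of the 57, 4 higher and 10 lower, or 24.6%. Over all tested genes that share was 25.8%, with 11.5% higher and 14.3% lower. The median log2 fold change of the 57 was 0.0003, or -0.07 with a common FPKM total, where 1 was higher and 13 were lower at that p. Of 25 mitosis genes 0 had an unadjusted p under 0.05, and their median was 0.01, or -0.06 with a common FPKM total, where 5 were lower. Under that scaling 726 of all 12944 tested genes were higher and 2328 lower at that p. Groups did not overlap for 7 mitosis genes, 2 higher and 5 lower, or 28.0%, against 25.8% of all tested genes on the deposited scale.

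The other replication genes with the smallest p were Dck, Orc1, Hells and Cdc25a. Dck, the deoxycytidine kinase of nucleotide salvage, stood at 68.3, 63.6 and 67.1 FPKM in WT and 53.9, 57.4 and 54.7 FPKM in the PELI2 knockout-labelled libraries. The groups did not overlap, and the log2 fold change came to -0.26 (adjusted p = 0.142, limma). Orc1, the largest subunit of the origin recognition complex, stood at 4.32 ± 0.15 and 5.18 ± 0.25 FPKM. Hells, a chromatin remodeller, stood at 10.3 ± 0.34 and 9.11 ± 0.37 FPKM, and Cdc25a, a phosphatase that activates cyclin-dependent kinases, at 8.53 ± 0.16 and 9.55 ± 0.32 FPKM. Adjusted p for these 3 ran from 0.177 to 0.215 (limma). Of the mitosis genes Nek2, Cdk1, Birc5 and Bub1b had the smallest p, with adjusted p from 0.315 to 0.395 (limma).

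Markers of the cells in the fraction differed in level between the same libraries. The summed FPKM of 8 B cell identity markers lay between 1587 and 1965 in WT and between 1366 and 1419 in the PELI2 knockout-labelled libraries. That of 10 pro-B and large pre-B markers lay between 472 and 680 in WT and between 409 and 451 in the labelled group. At an unadjusted p under 0.05, 6 of 8 and 4 of 10 were lower and 1 of the pro-B list, Kit, was higher, against 18.1% of all tested genes in either direction. The count of 4 lower pro-B and large pre-B markers was 2 without PELI2_knockout replicate 1 or replicate 3 and 7 without WT replicate 2, and 6 with a common FPKM total. The sums of both lists were apart between the groups, whereas that of the replication genes was not.

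The medians of the granulocyte, erythroid, monocyte and plasmacytoid dendritic cell lists lay the other way under the deposited scale and under 3 other scalings. The sum of 10 granulocyte markers lay between 7133 and 9940 in WT and between 11411 and 13350 in the PELI2 knockout-labelled libraries, with 8 of 10 higher at an unadjusted p under 0.05, or 5 without PELI2_knockout replicate 3 or with quantile normalization. The sum of 10 erythroid markers lay between 5121 and 7558 in WT and between 7611 and 9286 in the other group, with 6 of 10 higher, or 2 without WT replicate 1 or PELI2_knockout replicate 2. WT replicate 1 held 78.3% of the WT mean of the erythroid sum, 80.8% of the granulocyte sum and 113% of the B cell identity sum. The 6 monocyte markers were all higher at that p, with sums between 106 and 147 in WT and between 181 and 195 in the other group. Of 6 plasmacytoid dendritic cell markers 4 were, with sums between 499 and 530 and between 577 and 694. The sum of stem and progenitor markers was apart and higher as well. That of T and NK cell markers was too, but 1 of the 5 tested, Nkg7, was higher at that p, with means of 30.2 and 45.7 FPKM, while Cd3d and Lck had lower means and the median log2 fold change was 0.06. The sums of mature B and plasma cell markers overlapped. No marker of these lists was at 0 in all libraries, and 0 of them passed with adjustment over all genes (limma). The part of the cell mixture in the level of the replication genes was not tested.

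**Figure D4:**
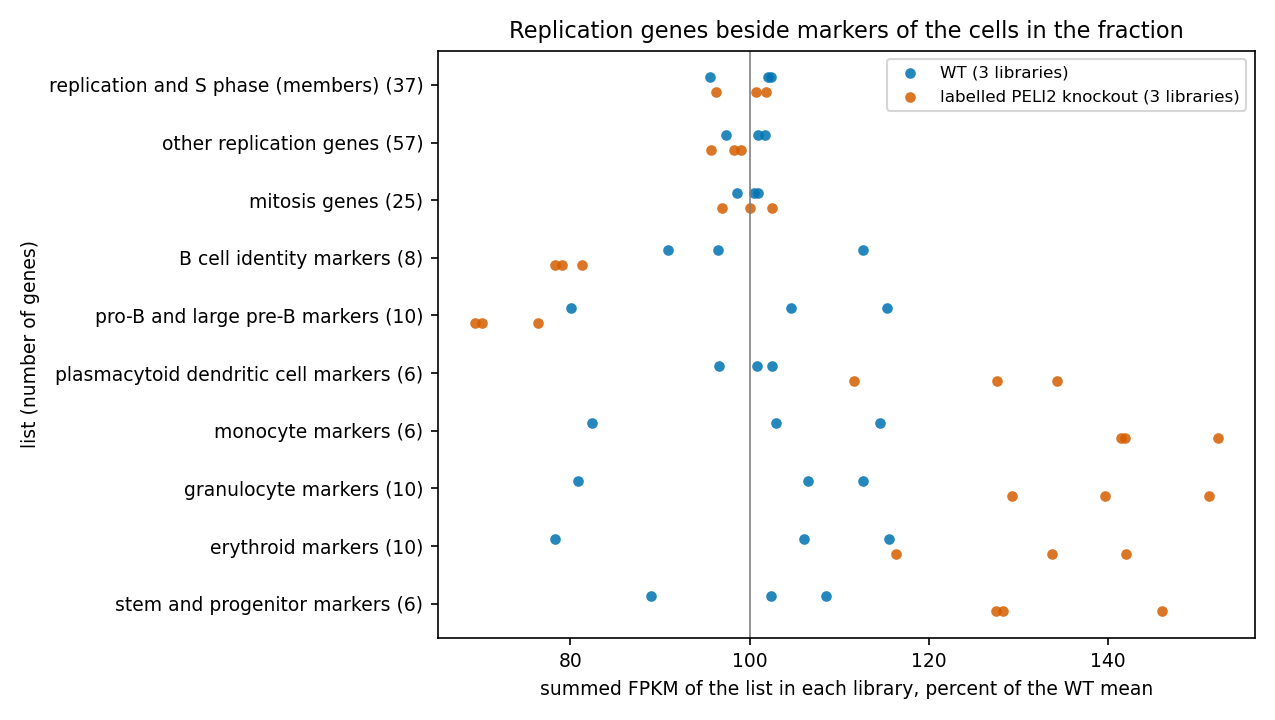
Summed FPKM of each gene list in each library as a percentage of the WT mean of that list, WT in blue and libraries labelled PELI2 knockout in orange. The members stay between 95.5% and 102% in all 6 libraries. Other replication genes stay between 95.7% and 102% and mitosis genes between 97.0% and 102%. In the labelled libraries pro-B and large pre-B markers reach down to 69.4% and monocyte markers up to 152%.

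The genome annotation bears on some of these values. The members lie on 14 chromosomes, and 36 of 37 have the coordinates of GENCODE M21, Pola2 being the other. The span of another annotated gene overlaps 15 members on the opposite strand and 7 on the same strand, 17 members in all. Whole spans were compared, not exons. The levels of these members may be less certain, but any effect of the overlap was not tested. Cdt1 and Gins2 lie within the span of Gm20388, and Mcm7 hosts Mir25, Mir93 and Mir106b. Start sites of another protein-coding gene lie within 500 bases and on the opposite strand for 6 members, or 16.2%, against 14.7% of tested protein-coding genes. These pairs were Mcm4 with Prkdc, Mcm7 with Ap4m1, Cdc45 with Ufd1, Pole with Pxmp2, Fen1 with Tmem258, and Tk1 with Afmid. Pseudogene rows named for a member were Pcna-ps2, between 2.02 and 3.17 FPKM, and Tyms-ps, at most 0.0657 FPKM. Reads shared with such copies may be split between the rows.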

How the data were processed

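Per the labels' protocols, poly(A) RNA of B220+ cells was sequenced as single-end reads of 50 bases on a DNBSEQ instrument. The authors deposited FPKM per gene and library. RSEM 1.2.12, HISAT2 2.0.4, DESeq2 1.4.5 and Bowtie2 2.2.5 and the build GRCm38.p6 appear in the submitters' processing notes, without roles. Strand use is not given in the sources used here. As FPKM are normalized, count tests were not applied.

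Depth was worked out from genes with 1 GENCODE M21 transcript, where 99.1% to 99.4% of low values came out as whole reads within 0.03. All libraries were fitted with limma 3.58.1 in R 4.3.3 (lmFit, eBayes with a trend) on log2(FPKM + 1) for genes at 1 FPKM or more in at least 3 libraries, two-sided, with no replicate block. The pseudocount understates the change of low genes. The fit was tested on simulated data. Lists got counts and medians, no test. Values in every library are given for the 2 members with the smallest p in each of 6 roles, and for members at an unadjusted p under 0.05 with groups apart. Up to 4 genes with the smallest p are named in other lists. The members, the lists and the interval bounds were chosen with earlier results of these data known. Alternatives were other pseudocounts, filters, scalings, eBayes without a trend, library weights, the replicate block and leaving out each library. Figures were drawn with matplotlib 3.10.9.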

Additional observations from a re-analysis of the deposited data

How the results depend on the processing

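Of 16 alternatives, 0 gave a replication gene with an adjusted p under 0.05, and the smallest adjusted p of any member in any of them was 0.144 (limma, common FPKM total). For the 12 members described in full, 191 of 192 values kept their direction, and Mcm4 turned to -0.0176 (log2) with a common FPKM total. The median of the members was -0.0473 there, and with a library left out it ran from -0.0041 to 0.05. The 4 members at an unadjusted p under 0.05 became 2 without a trend and 1 to 4 with a library left out: 1 without PELI2_knockout replicate 1 (Ccne1) or replicate 2 (Uhrf1), and 2 without WT replicate 1 (Fen1 and Uhrf1). The 3 calls over all genes became 1 with a filter of 5 FPKM, where fewer genes were tested, 6 without a trend, and 1 to 13 with a library left out, 13 of them without PELI2_knockout replicate 3. The cause of these changes was not tested. The Peli2 difference of 0.556 FPKM ran from 0.395 to 0.733 with a library left out. With the replicate number as a block, 3 members had an unadjusted p under 0.05 (Ccne1, Pold1 and Uhrf1), 0 passed with adjustment, and 4 genes of all passed. Same-numbered libraries correlated between 0.04 and 0.10 in their deviations from the group means, not above 0.1 for every pair, so the numbers were not taken to pair the samples, although 6 of 6 libraries correlated best with their own number. With 3 libraries per group, groups of this size were not screened for outlying libraries.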
